A study of Mus musculus with 8 samples.

Results

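The cells described here were heart macrophages rich in MHC class II transcripts, taken from 4 droplet single-cell RNA libraries of mouse hearts. A cell was kept if it held 200 to 6000 genes, 500 to 30000 UMIs (unique molecular identifiers, each 1 captured transcript) and less than 15% mitochondrial UMIs. A kept cell was called C1q-positive if C1qa, C1qb and C1qc together reached 10 UMIs and neither Cd3e nor Cd79a had a UMI. It was a member if, in addition, Lyve1, Folr2, Timd4 and Cd163 together had fewer than 2 UMIs and H2-Aa, H2-Ab1 and H2-Eb1 together had at least 10. There were 1245 members among 4775 C1q-positive cells and 27053 kept cells. The C1q-positive cells with 2 or more UMIs of Lyve1, Folr2, Timd4 and Cd163 numbered 3433 and are called resident-like macrophages. The remaining 97 C1q-positive cells fell short of the MHC class II threshold. The members were thus selected on measured values of 12 genes, and the levels of those genes, together with Cd74, are a description with no test.

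The hearts came from male C57BL/6J mice that were 8 weeks old at assignment and underwent a sham operation or transverse aortic constriction (TAC), a surgical narrowing of the aortic arch that overloads the left ventricle. One library was made from sham hearts and one each from hearts 2, 4 and 6 weeks after TAC (named TAC-2w, TAC-4w, TAC-6w), and a spatial section was made for each of the same groups. Where 4 values follow each other below, they are those of sham and then of the TAC groups by time. How many mice entered a library, and the time after surgery of the sham hearts, were not given in the sources used here. With 1 library per condition, differences between conditions had no replicate check, and intervals between libraries cover counting error only. Cells labelled as a preparation of nuclei in the deposited descriptions were described in the study's methods as cells from digested tissue with dead cells removed.

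Macrophages are tissue phagocytes. C1qa, C1qb and C1qc encode the chains of complement C1q, which heart macrophages produce in quantity. MHC class II molecules, among them the H2-A heterodimer in mice, display peptides from engulfed material to CD4 T cells. The invariant chain Cd74 guards their groove and the H2-DM proteins load the peptide. Only transcripts were measured here, H2-Eb1 among them, not the surface proteins. In the heart, macrophages that carry the hyaluronan receptor Lyve1, the folate receptor Folr2 and the phosphatidylserine receptor Timd4 are known as long-lived residents that renew themselves locally, whereas macrophages with the chemokine receptor Ccr2 are replenished from blood monocytes. MHC class II is found on cells of either origin.

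MHC class II genes share promoter boxes to which the RFX complex and NF-Y bind and to which the transactivator CIITA is recruited. Since the level of these genes set the members apart, the 100 bases before the start of H2-Aa and H2-Eb1, the genes of the rule matched in the RefSeq promoter table (GRCm38.p6), are shown 5′ to 3′ on the strand of the gene. Capitals mark each ATTGG, the NF-Y box, or its reverse complement CCAAT.
H2-Aa: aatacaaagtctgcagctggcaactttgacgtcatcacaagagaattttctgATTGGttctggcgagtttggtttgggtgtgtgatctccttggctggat
H2-Eb1: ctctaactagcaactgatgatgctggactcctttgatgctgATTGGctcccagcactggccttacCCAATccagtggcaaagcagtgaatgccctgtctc
The H2-Aa stretch lies at chr17:34287824-34287923 on the minus strand, and its ATTGG begins 48 bases before the start of the gene. The H2-Eb1 stretch lies at chr17:34305767-34305866 on the plus strand, with ATTGG beginning 59 bases and CCAAT 35 bases before the start. Of all 32851 RefSeq promoters of 300 bases (250 before and 50 after the start), 37.4% held ATTGG or CCAAT on either strand, so a match of 5 letters by itself is common.

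The libraries held 5577 to 8228 kept cells with medians of 4484 to 10856 UMIs per cell. Members were shallowest in TAC-6w, with a median of 3485 UMIs per cell against 7286 in sham, 7762 in TAC-2w and 7311 in TAC-4w. In each library 45 to 67 kept cells, 2 to 5 of them members, carried a barcode also found among all deposited barcodes of another library. TAC-4w stood apart in holding 149 C1q-positive cells, against 919 to 1901 in the others, and in the transcripts of other cells found in members. Summed UMIs of 6 fibroblast genes came to 3060, 1777, 26.7 and 1349 counts per 1000000 UMIs (CPM) in the members of the 4 libraries. Some other markers came largely from a single cell, which gave 96.4% of the neutrophil UMIs of sham members, 49.0% of the NK cell UMIs of TAC-4w members and 76.9% of the haemoglobin UMIs of TAC-6w members. Others were spread, such as platelet and B cell markers in sham, where the richest cell gave 1.66% and 1.44%. By the labels sham and TAC-6w shared a batch, and TAC-2w and TAC-4w each had a batch of their own, so that batch and condition cannot be told apart for these.

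Members carried a median of 172.5, 193, 215 and 94 UMIs of the 3 MHC class II genes per cell, far above the threshold. As a share of a cell's UMIs this was 2.64%, 2.67%, 3.01% and 2.78%, which removes the difference in depth. The interquartile range of sham members was 1.63% to 3.58%. Resident-like macrophages had medians of 1.23%, 0.653%, 2.81% and 1.21% in the same order, with an interquartile range in TAC-2w of 0.0569% to 1.80%. TAC-4w was the library in which both populations carried nearly the same share. Among resident-like macrophages 81.5%, 70.6%, 98.0% and 71.0% also reached 10 MHC class II UMIs, so the MHC class II threshold alone did not separate the populations.

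**Figure D1:**
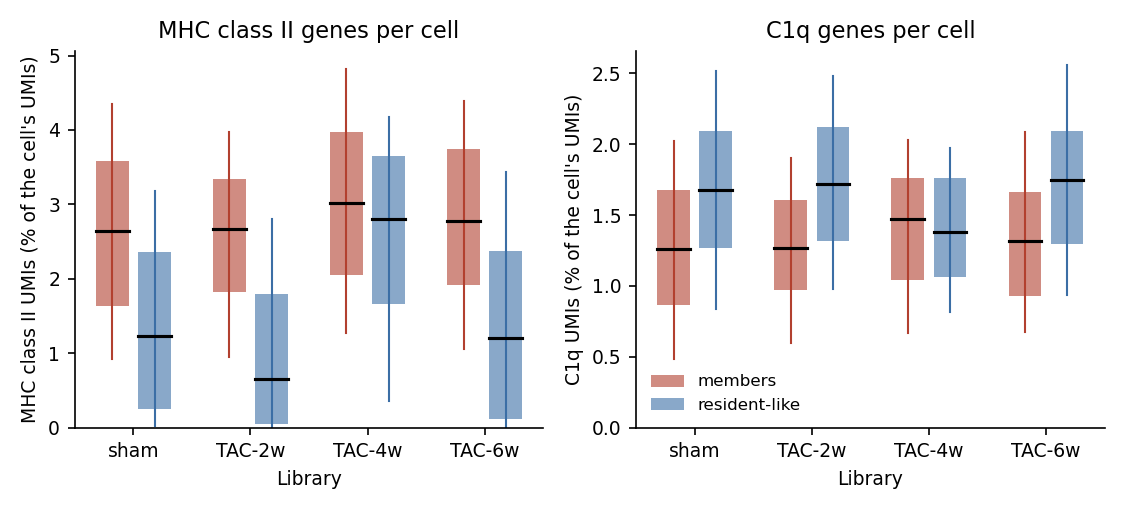
Share of each cell's UMIs (y axes, percent) held by H2-Aa, H2-Ab1 and H2-Eb1 (left) and by C1qa, C1qb and C1qc (right) in members and resident-like macrophages of the 4 libraries (x axes). Boxes span the 25th to 75th percentile of the cells, thin lines the 10th to 90th percentile and black bars the median; members sit above resident-like macrophages on the left in each library, by the least in TAC-4w (3.01% against 2.81%).

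Summed over cells, H2-Aa stood at 7645, 8127, 9096 and 8032 CPM in members, and at 4211, 3192, 8386 and 3914 CPM in resident-like macrophages. Cd74, which the rule did not use but which is known to follow the same genes, was at 18500, 19800, 24960 and 20200 CPM in members and at 9544, 8048, 19980 and 9705 CPM in resident-like macrophages. C1qa was lower in members, with 4265, 4375, 4857 and 4781 CPM against 6210, 6577, 5335 and 6738 CPM. Lyve1, at 2.33 to 5.40 CPM in members and 349 to 1010 CPM in resident-like macrophages, was low in members by the rule. In all libraries together, 928 members had no UMI of the resident genes and 317 had 1, while 204 C1q-positive cells that reached the MHC class II threshold lay just outside with 2. Only 26 members had 10 to 12 C1q UMIs and 9 had 10 to 12 MHC class II UMIs, while 19 cells lay outside at 7 to 9 on each count. The absence of Cd3e and Cd79a removed 35 cells.

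Members were the minority of C1q-positive cells in sham and shortly after TAC and the majority in TAC-4w. They made up 25.5% (95% Clopper-Pearson interval 23.5 to 27.5) of C1q-positive cells in sham, 16.8% (15.1 to 18.6) in TAC-2w, 63.8% (55.5 to 71.5) in TAC-4w and 39.4% (36.2 to 42.6) in TAC-6w. Relative to sham these shares were 0.661, 2.50 and 1.55 times as high. None of the 4 intervals overlapped another. Of all kept cells, however, members were 5.88% in sham, 4.68% in TAC-2w, 1.41% in TAC-4w and 6.49% in TAC-6w, or 0.795, 0.239 and 1.10 times the share in sham. Among cells with under 5% mitochondrial UMIs these ratios were 0.706, 0.476 and 1.43. In TAC-4w the members therefore took the larger part of a C1q-positive population of 149 cells and the smallest part of all kept cells. A fixed number of UMIs is harder to reach in shallow cells. When cells were first thinned to 2000 UMIs and selected with thresholds of 5 C1q UMIs, 5 MHC class II UMIs and no resident UMI, the shares of C1q-positive cells were 28.6%, 20.8%, 66.0% and 36.1%, and the TAC-6w share of kept cells fell to 0.977 times that of sham, which turned its direction.

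**Figure D2:**
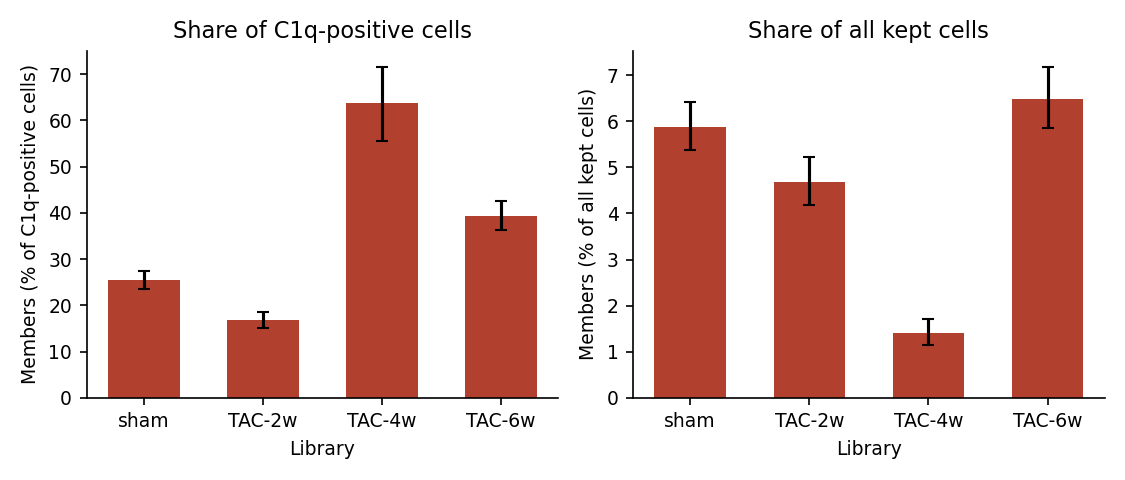
Members as a percentage of C1q-positive cells (left) and of all kept cells (right) in each library. Bars are the shares and lines their 95% Clopper-Pearson intervals, which cover counting error only; TAC-4w has the highest bar on the left (63.8%) and the lowest on the right (1.41%).

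To ask which transcripts outside the rule set members apart from resident-like macrophages, UMIs were summed per population and library, and the 4 libraries were compared in pairs with edgeR's quasi-likelihood test with the library as a block. Of 9469 genes tested, members were higher for 682 (7.20%) and lower for 502 (5.30%) at a Benjamini-Hochberg adjusted p under 0.05. Without the TAC-2w library the numbers were 244 and 255, and without sham 409 and 324. Genes with the largest differences, among those with at least 50 CPM in a population and the same direction in each library, are given first. The genes by their roles follow.

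Ccr2, the receptor that draws monocytes out of the marrow and into inflamed tissue, reached 232, 288, 335 and 170.1 CPM in members, and 39.9, 30.8, 46.0 and 25.0 CPM in resident-like macrophages. The lowest member library lay above the highest resident-like library, and the difference was 2.96 ± 0.22 on the log2 scale (SE, n = 4 libraries, adjusted p = 1.34e-07). With cells thinned to 2000 UMIs, 23.4% (19.6 to 27.5) of sham members held a Ccr2 UMI against 3.99% of resident-like macrophages and 0.197% of fibroblast-like cells, which should lack the gene; unthinned median depths were 7286, 8234 and 10670 UMIs. The thinned share in members was 24.3% in TAC-2w, 23.2% in TAC-4w and 19.1% in TAC-6w, and these intervals overlapped. Only a minority of members thus had a detected Ccr2 transcript at this depth.

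Among genes that averaged at least 50 CPM in a population, Mmp12, the macrophage elastase, had the largest rise, with 142, 232, 262 and 82.4 CPM in members and 10.2, 14.8, 2.71 and 3.18 CPM in resident-like macrophages (log2 difference 4.05 ± 0.37, adjusted p = 1.31e-06). It was unevenly spread, being found in 11.2% of sham members and 5.25% of TAC-6w members, and 1 cell gave 65.3% of its UMIs in TAC-4w. Napsa, an aspartic protease, was at 43.0, 64.3, 88.4 and 33.8 CPM in members and at 2.34 to 8.12 CPM in resident-like macrophages (3.97 ± 0.27, adjusted p = 5.28e-08). Tnip3, an inhibitor of NF-kB signalling, was at 176, 313, 17.4 and 127 CPM against 21.9, 27.99, 10.8 and 12.7 CPM (3.34 ± 0.16, adjusted p = 2.11e-09), and its TAC-4w value in members lay within the range of resident-like macrophages. The other genes with the largest rises were F11r, a junctional adhesion molecule, Bcl2a1a and Bcl2a1d, survival factors of the Bcl2 family whose near-identical copies share reads and are uncertain one by one, the activation marker Cd69, the signalling protease Malt1 and the receptor subunit Ramp1, with log2 differences of 2.11 to 2.49.

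**Figure D3:**
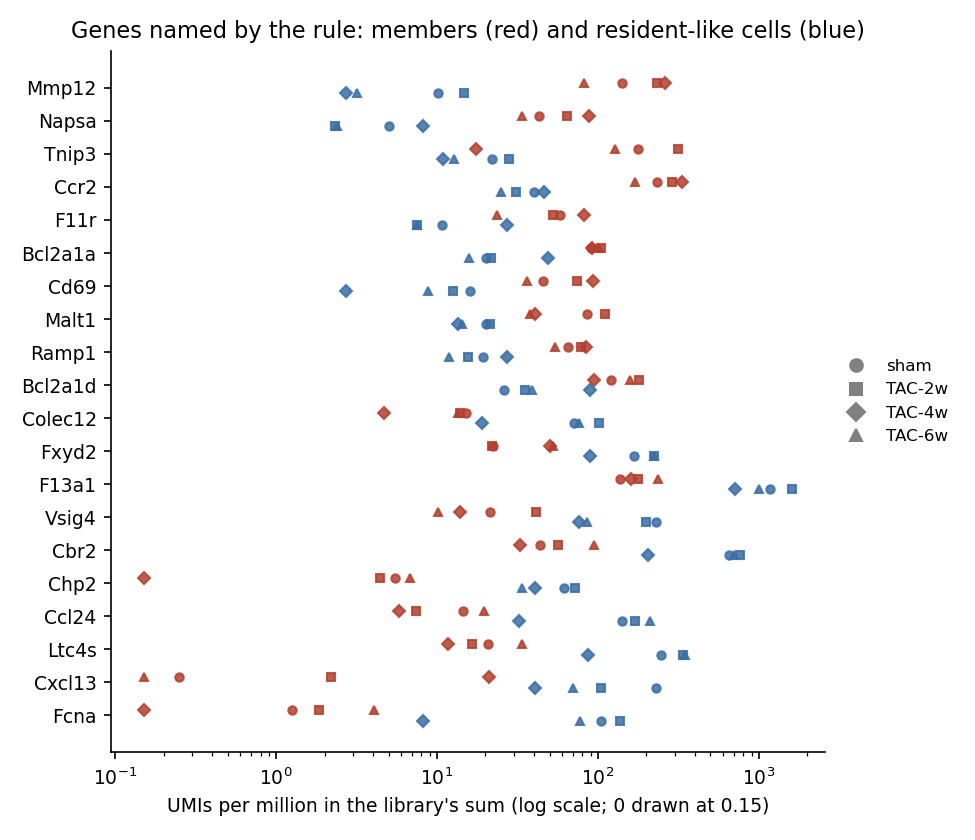
Level of 10 raised and 10 lowered genes outside the rule, in CPM (x axis, log scale, with 0 drawn at 0.15). They had the largest differences among called genes with the same direction in all 4 libraries and at least 50 CPM in a population. Members are red, resident-like macrophages are blue, and each marker is 1 library. By this choice each gene's 4 red markers lie on the same side of their own library's blue marker. Among the raised genes Bcl2a1d in TAC-4w (94.2 against 89.3) has the closest pair.

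Of the machinery that works with MHC class II, 6 of 11 tested genes rose in members and none fell, with a median log2 difference of 0.56 against 0.0098 over all genes tested. H2-DMa, a chain of the peptide-loading H2-DM, was at 553, 524, 765 and 670 CPM in members and at 299, 238, 517 and 360 CPM in resident-like macrophages (0.98 ± 0.12, adjusted p = 3.82e-05). Its partner H2-DMb1 rose by 1.29 ± 0.18. The transactivator Ciita had 63.2, 67.6, 88.4 and 52.7 CPM against 26.2, 19.1, 111 and 24.6 CPM (1.304 ± 0.22, adjusted p = 0.000522). In TAC-4w Ciita was lower in members than in resident-like macrophages, and without the TAC-2w library its call was lost. H2-DMb2, the protease Ctss, which trims the invariant chain, and the thiol reductase Ifi30 rose as well, by 1.80, 0.56 and 0.48. Of 10 MHC class I presentation genes, edgeR called 0, with 0 at an unadjusted p under 0.05 and 0 called by DESeq2. Their light chain B2m differed by 0.09 ± 0.10. Of 9 costimulatory and checkpoint genes, Havcr2, Cd274, Tnfsf9 and Icosl rose, by 0.70 to 1.29. Cd80 (0.31 ± 0.33, adjusted p = 0.661) and Cd86 (0.11 ± 0.11, adjusted p = 0.632), the ligands of Cd28 on T cells, did not pass the test.

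Of 13 monocyte genes tested, 6 rose in members and none fell, with a median of 1.19. They were Ccr2, Ly6c2, Plac8, Fn1, Ms4a4c and Ear2. Plac8 was at 34.7, 29.4, 116 and 0 CPM in members, with most of its TAC-4w UMIs from 1 cell. In TAC-6w it was lower in members than in resident-like macrophages. Ear2, a ribonuclease of monocytes that patrol vessels, was at 48.7, 74.6, 19.8 and 45.9 CPM in members and at 1.5 to 5.41 CPM in resident-like macrophages (4.94 ± 0.30, adjusted p = 6.32e-08). Fn1, fibronectin, was at 111, 64.7, 120 and 112 CPM against 30.1, 22.1, 48.7 and 20.2 CPM (1.96 ± 0.15). Ly6c2, the antigen of classical monocytes, was low, at 21.2, 23.9, 98.8 and 2.70 CPM, with 72.9% of its TAC-4w UMIs from 1 cell, and its call was lost when separate UMIs chose the cells and entered the test. Chil3 (1.81 ± 0.96, adjusted p = 0.292), also of classical monocytes, did not pass. In sham the members held 411 CPM of a list of 6 classical monocyte markers, none of them at 0, and the part of monocytes among the members was not tested.

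Of 7 dendritic cell genes tested, Itgax, Flt3, Batf3 and Irf8 rose and Clec10a and Kmo fell. Itgax, the integrin chain CD11c, stood at 33.5, 41.2, 45.3 and 27.0 CPM in members and at 0.397 to 5.41 CPM in resident-like macrophages (4.18 ± 0.23, adjusted p = 3.78e-09). Flt3, the receptor that defines dendritic cells, was at 5.49, 3.67, 10.5 and 5.40 CPM in members and at 1.00, 0.812, 16.2 and 0.794 CPM in resident-like macrophages, so that TAC-4w went against the other libraries. The summed level of 6 dendritic cell markers, Flt3 among them, was 12.5 to 27.9 CPM in members, with 1 or 2 markers at 0 in each library, and their part in the rise of Itgax was not tested.

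Inflammatory mediators were mostly higher in members than in resident-like macrophages, with 13 of 25 chemokine and cytokine genes higher and 5 lower (median 0.67). Il1b, the cytokine interleukin-1 beta, was at 1061, 1806, 513 and 903 CPM in members and at 245, 341, 292 and 204 CPM in resident-like macrophages, with no overlap between the populations (2.03 ± 0.20, adjusted p = 2.98e-06). Its inflammasome sensor Nlrp3 rose by 1.27 ± 0.14, and its soluble antagonist Il1rn by 1.42 ± 0.18. The neutrophil attractant Cxcl2 rose by 0.75 ± 0.14, from a level of 2154, 2477, 931 and 3050 CPM in resident-like macrophages to 3207, 4200, 1443 and 4725 CPM in members. Tnf, Cxcl10, Cxcl16, Ccl3, Ccl4, Il1a, Osm, Tgfb1 and Ccl5 rose too, the last of these with 54.3% of its TAC-4w UMIs from 1 cell. The 5 that fell were Ccl8, Ccl24, Ccl6, Ccl7 and Ccl9, of which Ccl8 was at 8.99, 3.67, 19.8 and 37.1 CPM in members and at 375, 330, 10.8 and 343 CPM in resident-like macrophages (fell by 4.30 on the log2 scale, SE 0.45). Ccl2, the ligand of Ccr2, did not pass the test (log2 difference -0.37 ± 0.18, adjusted p = 0.251).

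All 17 tested genes of the resident scavenger and endocytic list fell in members, with a median of -1.69, although none of them was part of the rule. The list was drawn up with earlier results of these data known and many of its genes are known companions of Lyve1 and Folr2, so it is no independent evidence of direction. Cbr2, a carbonyl reductase, was at 43.7, 56.6, 32.6 and 94.5 CPM in members and at 651, 762, 206 and 700.4 CPM in resident-like macrophages, and fell by 3.29 (SE 0.19, adjusted p = 4.98e-09). F13a1, the coagulation factor XIII subunit, had 137, 176, 159 and 236 CPM against 1168, 1609, 709 and 1003 CPM. The mannose receptor Mrc1 fell by 1.16 (SE 0.14), to 302 to 415 CPM in members, and thus remained readily detected. The platelet factor Pf4, the selenium carrier Selenop and the growth factor Igf1 fell by 1.69, 1.03 and 1.00. The 10 largest falls were taken among genes with at least 50 CPM in a population and the same direction in each library. They included the lectin Fcna, Ltc4s, which makes leukotriene C4, and the complement receptor Vsig4, all of this list. From outside it came Cxcl13, the attractant of B cells, the scavenger lectin Colec12, Ccl24, Chp2 and Fxyd2.

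Complement genes other than C1q were lower in 6 of 10 cases, among them C4b, C2, Cfb and the receptor C5ar1, and 1, Itgax, was higher. C4b was at 33.0, 49.2, 37.2 and 58.7 CPM in members and at 253, 210.3, 135 and 358 CPM in resident-like macrophages (fell by 2.36, SE 0.18, adjusted p = 1.67e-07). Of 18 lipid and lysosome genes, Gpnmb, Spp1, Lpl, Cd9, Lgals3 and Abcg1 rose and Abca1, Fabp4, Ctsb and Apoe fell. The lipoprotein Apoe, at 12100, 12980, 16660 and 17300 CPM in members, fell by 0.49 (SE 0.10). The fall of Fabp4 turned to a difference of 0.16 once likely doublets were left out. Of 14 growth and repair genes, Mmp12, Areg, Vegfa, Mmp14 and Pdgfb rose and Pdgfc, Timp2 and Grn fell. Areg, amphiregulin, was at 16.2, 47.0, 1.16 and 8.10 CPM in members, and its log2 difference was 1.97 ± 0.27.

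Of 15 macrophage identity genes, 2 rose, among them the fractalkine receptor Cx3cr1 by 0.67, and 1, P2ry12, fell by 1.06. The list summed to 12270, 12900, 19420 and 14500 CPM in members and to 17170, 18960, 18710 and 18010 CPM in resident-like macrophages, and so was lower in members except in TAC-4w. Most of the sum was Lyz2, which averaged 9047 CPM in members and 12030 CPM in resident-like macrophages. Lyz2 itself did not pass the test (-0.36 ± 0.17, adjusted p = 0.212). The pan-macrophage genes Cd68 (-0.15 ± 0.14, adjusted p = 0.583) and Adgre1, which encodes F4/80 (-0.14 ± 0.13, adjusted p = 0.595), did not pass, and were found at 270.1 to 347 CPM and 169.5 to 247 CPM in members. Of the 20 interferon response genes, Ifi44 rose and Iigp1 and Gbp7 fell. Of 10 cell cycle genes and 8 mitochondrial tRNA synthetases edgeR called 0, with 0 and 1 at an unadjusted p under 0.05 and 0 called by DESeq2, and of 16 immediate early and heat shock genes only Nr4a1 and Atf3 rose. Lars2, the mitochondrial leucyl-tRNA synthetase, was at 527, 573, 845 and 680 CPM in members and at 722, 713, 1605 and 716 CPM in resident-like macrophages (-0.33 ± 0.15, adjusted p = 0.2). The nuclear transcript Malat1 differed by -0.05 ± 0.09.

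Against the few C1q-positive cells with neither resident genes nor MHC class II at the threshold, members were higher for 81 genes (0.855% of those tested) and lower for 12 (0.127%). The comparison rested on 3 libraries, since the 3 such cells of TAC-4w were left out, and on 28 to 36 cells in each. The number of genes called varied widely with the settings. H2-DMa was at 91.6, 102 and 112 CPM in these cells of sham, TAC-2w and TAC-6w, below its members' 524 to 670 CPM in the same libraries (2.67 ± 0.19, adjusted p = 1.01e-06), and H2-DMb1 was at 62.7, 20.5 and 39.6 CPM. Ccr2 was at 4.82, 133 and 19.8 CPM and rose in members by 2.33 ± 0.40. Ms4a4c, Clec4b1, Emb, Malt1, Napsa and Lyz1 were higher in members as well. Of 25 chemokine and cytokine genes, Il1b, Ccl9 and Ccl6 were higher in members and 0 were lower. Of those raised against resident-like macrophages, only Il1b passed here. Cxcl2 (log2 difference -0.02 ± 0.16) and Nlrp3 (0.71 ± 0.23) did not. Of 17 resident scavenger and endocytic genes 0 were called in either direction. Spp1, osteopontin, was at 62.7, 159 and 291 CPM in the cells with little MHC class II and at 36.5, 28.7 and 38.5 CPM in members, and fell by 1.84 (SE 0.35, adjusted p = 0.0182). The stress-induced cytokine Gdf15, the p53 regulator Mdm2, the tetraspanin Cd9, Bmp2, Apod, Aopep, Gpx3 and Bcl2l1 were lower in members too.

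Retnla, which encodes a secreted protein of alternatively activated macrophages, had no UMI in any of the cells with little MHC class II. In members it was at 1334, 1408, 856 and 1294 CPM, but came from few cells. A Retnla UMI was found in 40 of 484 sham members (8.26%), 24 of 304 TAC-2w members (7.89%), 7 of 95 TAC-4w members (7.37%) and 15 of 362 TAC-6w members (4.14%), and the 5 richest cells gave 50.5% to 99.7% of the Retnla UMIs of a library. Resident-like macrophages held 679, 600, 1015 and 287 CPM (log2 difference 1.15 ± 0.27, adjusted p = 0.00876), with the TAC-4w value of members below that of resident-like macrophages. That call was lost without the TAC-2w library (edgeR adjusted p = 0.126), without the TAC-6w library (adjusted p = 0.0675), without cells holding other markers (adjusted p = 0.0657) and without the library block (adjusted p = 0.112).

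Members were not uniform in Ccr2. With cells thinned to 2000 UMIs, sham members with a Ccr2 UMI (110 cells) and without one (360 cells) were described side by side, a split made after values were seen and given with no test. The monocyte list without Ccr2 summed to 3014 CPM (2789 to 3252) in the former and 1118 CPM (1042 to 1198) in the latter. Scavenger genes summed to 2677 CPM (2465 to 2902) and 3842 CPM (3700 to 3988). Apoe was at 10550 and 14780 CPM, H2-Aa at 9445 and 7886 CPM and C1qa at 3882 and 5014 CPM. Il1b was at 1268 CPM (1124 to 1426) and 962 CPM (892 to 1037) in sham but at 1815 and 1855 CPM in TAC-2w at 500.0 and 630.1 CPM in TAC-4w and at 975 and 1002 CPM in TAC-6w, where the intervals overlapped. In each library scavenger genes and Apoe were lower, and H2-Aa higher, in the members with a Ccr2 UMI. C1qa was lower in them in TAC-2w (3993 against 4960 CPM) and TAC-4w (4341 against 5418 CPM) too. In TAC-6w it was not (4934 against 4866 CPM).

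Between libraries, members of each TAC library were set against those of sham wherever 1 of the sums held 50 UMIs or more of a gene. Members of TAC-2w were at least 2-fold higher for 15 of 6875 genes (0.218%) and lower for 162 (2.36%). Those of TAC-4w were higher for 88 of 6859 genes (1.28%) and lower for 584 (8.51%), and those of TAC-6w were higher for 55 (0.802%) and lower for 539 (7.86%). The sham sum was the deepest, so that genes low throughout entered mainly through sham, which favours falls in this count. The median ratio over all genes was 0.975, 1.02 and 0.852, a shift of -0.23 on the log2 scale in TAC-6w against which its changes should be read. Once cells with markers of other cell types were left out, 42, 320 and 312 genes lay past 2-fold in either direction.

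Many of the extreme ratios rested on 1 member or on genes known from other cell types, and the source of these transcripts was not tested. In sham, 1 member gave 99.0% of the UMIs of Ngp and 99.6% of those of Camp, granule genes of immature neutrophils, and these with Lcn2 led the falls in TAC-2w and TAC-6w; Chil3, S100a8, S100a9 and Mucl1 likewise came mostly from 1 member, to 93.5%, 98.8%, 98.4% and 99.6%. The fibroblast genes Pi16, Dcn, Dpt, Ccdc80, Serping1 and Fbln2 led the falls in TAC-4w, with Dcn at 11.6 CPM against 2025 CPM in sham and 1450 CPM in resident-like macrophages of sham. Among the rises, Gzma and Ly6d in TAC-4w came to 50% and 99.1% from 1 member, Clec4f to 56.2%, Cytl1, Ccl19, Mmp3 and Cxcl9 in TAC-2w to 38.3%, 56.2%, 94.6% and 61.4%, and Comp and Ccl8 in TAC-6w to 50.9% and 54.5%. Without such a source among the 6 largest ratios were Egr3 in TAC-2w (2.34) and Snhg9 and Gm11808 in TAC-6w (5.48 and 3.63). A second choice was therefore made after the values were seen, of genes past 2-fold for which no member gave over 10% of the UMIs in the higher library and which stayed past 2-fold without cells holding markers of other cells. It kept 4 higher and 5 lower genes in TAC-2w, 15 and 88 in TAC-4w, and 33 and 158 in TAC-6w. This choice did not remove all genes of other cell types. The fibroblast gene Dcn, at 0.00574 times sham, still led the kept falls of TAC-4w, and the cardiomyocyte gene Myh6, at 0.146 times, was among them.

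In TAC-2w the members differed least from those of sham. Tnfsf9, the ligand of the costimulatory receptor 4-1BB, was at 149 CPM against 72.7 CPM in sham, 2.05 times as high (1.76 to 2.39). The transcription factor Klf10 was 2.08 times as high (1.73 to 2.50), and the stress-induced mTOR inhibitor Ddit4 0.406 times (0.301 to 0.541), at 22.4 against 55.2 CPM. In resident-like macrophages the same ratios were 1.57, 1.63 and 0.527. Areg was 2.90 times as high, with 18.0% of its UMIs from 1 of 20 members that held any. Il1b, at 1806 against 1061 CPM, was 1.70 times as high (1.63 to 1.77), against 1.39 times in resident-like macrophages.

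In TAC-4w the early activation and cytokine genes of members were low. Of 16 immediate early and heat shock genes 7 were at least 2-fold lower and none higher (median ratio 0.514 against 1.02 over all genes), and of 23 chemokine and cytokine genes 11 were lower and 2 higher (median 0.589). The nuclear receptor Nr4a1 was at 36.05 against 221 CPM, 0.163 times (0.110 to 0.233), and Egr1 at 486 against 1601 CPM. The heat shock gene Hspa1a was at 605 against 1738 CPM. Tnip3 fell to 0.0989 times sham (0.0551 to 0.164), Nlrp3 to 0.308 times, Cxcl2 to 0.450 times, and Il1b, at 513 against 1061 CPM, to 0.483 times (0.437 to 0.533). Resident-like macrophages of TAC-4w, 51 cells, stood at 0.132 times sham for Nr4a1 and 0.432 times for Cxcl2, but at 1.195 times for Il1b. Stab1, a scavenger receptor, was 2.33 times as high in TAC-4w members (1.98 to 2.73), the lysosomal protease Ctsd 3.35 times (3.02 to 3.72) but with 35.7% of its UMIs from 1 member, and Lars2 1.61 times (1.47 to 1.75), the last also higher in resident-like macrophages, at 2.22 times. Ly6c2, Plac8 and Ccl5 were also past 2-fold, with 72.9%, 54.0% and 54.3% of their UMIs from 1 member; without cells holding other markers the ratio of Ly6c2 turned to 0.631.

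In TAC-6w, which shared its batch label with sham, interferon-induced and cell cycle genes of members were low. Of 18 interferon response genes 12 were at least 2-fold lower and 1, Isg15, was higher, with a median ratio of 0.456 against 0.852 over all genes. Irf7, the transcription factor that amplifies type I interferon, was at 45.2 against 159 CPM (0.285 times, 0.218 to 0.367), Ifit3 at 11.5 against 75.4 CPM, with 10.9% of its sham UMIs from 1 member, and Oasl2 at 29.7 against 88.4 CPM, while Isg15 was at 101 against 49.4 CPM with 41.6% of its TAC-6w UMIs from 1 member. Ms4a4c, at 41.9 against 170.3 CPM, was found in 11.9% of TAC-6w members and 49.0% of sham members at the depths of these libraries. Of 9 cell cycle genes 8 were lower (median 0.308), with Mki67 at 35.8 against 126 CPM and Top2a at 32.4 against 88.4 CPM. In resident-like macrophages Irf7 was at 0.363 and Mki67 at 0.167 times sham, in the same direction.

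Members of TAC-6w were higher for the Notch target Hes1, at 169 against 42.0 CPM (4.04 times, 3.31 to 4.94), and for the metallothionein Mt1, at 4112 against 1442 CPM (2.85 times, 2.75 to 2.96). The same genes were 3.71 and 2.84 times as high in resident-like macrophages, so that these differences were shared by both populations. Tnf was at 258 against 97.6 CPM in members (2.64 times) and 1.86 times sham in resident-like macrophages. Of 15 scavenger genes Cbr2 and Stab1 were higher, by 2.16 and 2.08 times, Vsig4, with 22.1% of its sham UMIs from 1 member, was lower, and the median ratio was 1.45.

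The lists were also summed. The interferon list came to 1003, 1153, 684 and 594 CPM in members and to 1139, 1109, 845 and 741 CPM in resident-like macrophages. With cells thinned to 2000 UMIs the TAC-6w sum of members was 0.591 times sham, against 0.592 times without thinning. The cell cycle list came to 713, 658, 791 and 297 CPM in members and 831, 742, 144 and 216 CPM in resident-like macrophages, with the populations apart in TAC-4w, where 5 members gave 96.6% of the Mki67 UMIs. Immediate early and heat shock genes came to 23690, 24640, 14000 and 25550 CPM in members and to 23040, 26310, 14950 and 27460 CPM in resident-like macrophages. Relative to sham, the TAC-4w sum was 0.591 times in members and 0.649 times in resident-like macrophages, and that of chemokines and cytokines 0.642 and 0.680 times, so that both populations were low. In members the monocyte list was highest in sham, at 2320 CPM against 1769, 1991 and 1842 CPM, whereas in resident-like macrophages it was highest in TAC-4w, at 1422, 1192, 1919 and 1436 CPM.

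**Figure D4:**
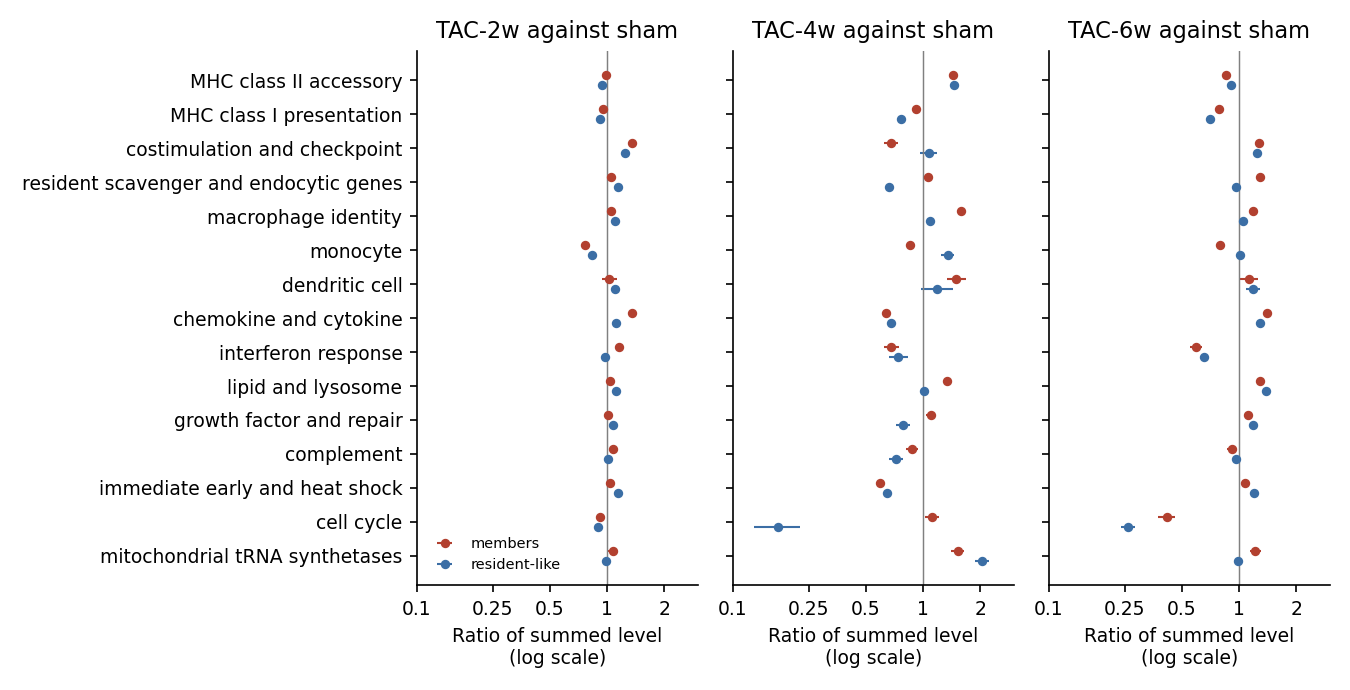
Summed level of each gene list in a TAC library relative to sham (x axes, log scale, 1 panel per TAC library) for members (red) and resident-like macrophages (blue); horizontal lines are 95% intervals of counting error, and the grey line marks a ratio of 1. The immediate early and cytokine lists lie left of 1 in TAC-4w (0.591 and 0.642 in members), and the interferon and cell cycle lists of members lie left of 1 in TAC-6w (0.592 and 0.417).

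The spatial sections gave a separate reading of the genes of the rule, from 1228 to 2193 spots over tissue per section. A spot covers several cells of different types, B cells and dendritic cells also express MHC class II, and in such tissue sums fewer cells of a type and less RNA per cell cannot be told apart. Summed over spots, C1q genes were at 207, 188.5, 414 and 305 CPM in the 4 sections, MHC class II genes at 180, 143, 469 and 412 CPM, and the 4 resident genes at 48.9, 44.1, 65.6 and 41.4 CPM. MHC class II UMIs per C1q UMI were 0.867 (0.833 to 0.902), 0.759 (0.735 to 0.783), 1.13 (1.11 to 1.16) and 1.35 (1.32 to 1.38). Per resident-gene UMI they were 3.68, 3.24, 7.15 and 9.94. Both ratios were lowest in TAC-2w and higher in TAC-4w and TAC-6w than in sham, as was the member share of C1q-positive cells, although TAC-6w rather than TAC-4w stood highest in the sections. Cd74 followed at 125, 109, 376 and 289 CPM, and Ccr2, at 1.81, 1.37, 3.04 and 3.65 CPM, rested on 47 to 176 UMIs per section. The B cell gene Cd79a stayed at 0.246 to 0.538 CPM, and the T cell gene Cd3e was at 0.192, 0.103, 0.783 and 1.68 CPM. With 1 section per group these differences had no replicate check, and the batches of the sections differed between sham and TAC-4w or TAC-6w.

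**Figure D5:**
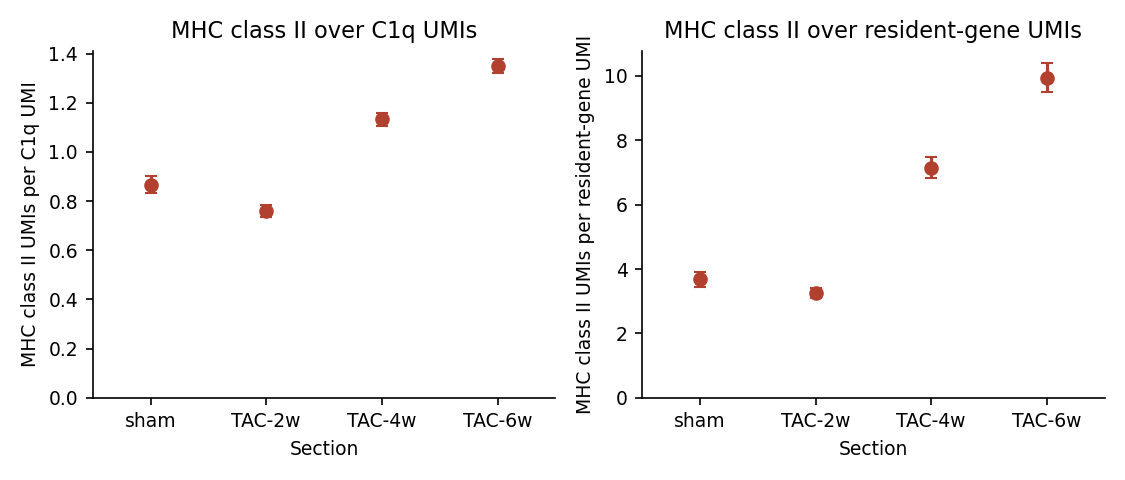
UMIs of H2-Aa, H2-Ab1 and H2-Eb1 per C1q UMI (left) and per UMI of Lyve1, Folr2, Timd4 and Cd163 (right) in the 4 spatial sections, each point 1 section with its 95% interval of counting error. TAC-2w is lowest (0.759 and 3.24) and TAC-6w highest (1.35 and 9.94) in both panels.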

How the data were processed

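The authors deposited raw UMI counts per gene and barcode for 4 single-cell libraries and per gene and spot for 4 spatial sections, counted on mm10 per the labels, which list Cell Ranger 7.0.0 and Space Ranger 1.3.1. Intervals cover counting error only, since each condition had 1 library and 1 section; the libraries held 28793316 to 86671674 UMIs. The members, gene lists and tests were chosen with earlier results of these data known.

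Members were selected by UMI thresholds with numpy 2.4.6 and scipy 1.17.1 under Python 3.11.15. UMIs were summed per library and population of at least 10 cells, and populations were compared over libraries with edgeR 4.0.16 (quasi-likelihood, TMM, library as block, Benjamini-Hochberg adjustment) in R 4.3.3, without the genes of the rule and Cd74. The procedure was tested on simulated counts. Each library gave a sum of both populations, so the block pairs them. The spread behind the p-values was estimated jointly from the sums of all C1q-positive populations, those low in MHC class II included. It reflects how far differences between populations varied over the 4 libraries, which differed in condition. Because the same UMIs chose cells and were tested, an alternative used separate UMIs for each. Shares have Clopper-Pearson intervals and ratios of sums exact binomial intervals, at 95%. Other alternatives were DESeq2 1.42.0, its size factors, no filter on low counts, thinning to 2000 UMIs, other thresholds and filters, removal of the 3.2% of cells with the highest doublet scores (scanpy 1.11.5), and leaving out each library; cells with shared barcodes or markers of other cells were left out after the data were seen.

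Named genes were the rule's genes, the 10 largest and 10 smallest called differences of each comparison with the same direction in every library and at least 50 CPM in a population, up to 6 called genes and the defining genes of each list, the 6 largest and 6 smallest ratios of each TAC library, and Lars2, Malat1, Cd68 and Adgre1. Other genes were named after their values were seen. Sequences are from the RefSeq promoter table. Some genes that these rules select are not reported here.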

Additional observations from a re-analysis of the deposited data

How the results depend on the processing

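The share of C1q-positive cells in sham, TAC-2w and TAC-6w moved beyond its interval to 18.99%, 11.9% and 29.27% when members had no resident UMI, and to 28.6%, 20.8% and 36.1% when chosen on thinned UMIs; without cells holding other markers that of TAC-2w was 20.66%. Of kept cells the shares in the same libraries were 4.387%, 3.307% and 4.823% with no resident UMI; chosen on thinned UMIs, those of sham, TAC-2w and TAC-4w were 6.882%, 6.095% and 1.771%; with under 5% mitochondrial UMIs the 4 shares were 3.992%, 2.819%, 1.9% and 5.697%; without filters sham had 5.363%, and with 20 C1q UMIs TAC-6w had 5.72%. Against resident-like macrophages, leaving out the library block, which pairs the populations of 1 library, gave 155 higher and 164 lower genes, and leaving out 1 library 244 to 722 and 255 to 641. Against cells low in MHC class II the higher and lower genes numbered 7 and 0 without the block (702 at an unadjusted p under 0.05), 296 and 64 without a filter, 229 and 21 with thinned cells, 130 and 29 without likely doublets, 155 and 98 chosen on thinned UMIs, 226 and 25 without other markers, 38 higher with DESeq2 size factors, 48 higher without shared barcodes and 45 lower with DESeq2, and 18 to 113 and 4 to 28 leaving out 1 library. Genes past 2-fold in TAC-2w, TAC-4w and TAC-6w numbered 38, 206 and 186 with thinned cells, 465, 1350 and 1229 from 20 UMIs, 42, 320 and 312 without other markers, 100 and 345 in the first pair without likely doublets, and 99 in TAC-2w chosen on thinned UMIs. Fabp4 turned from a fall against resident-like macrophages to 0.1637 without likely doublets and 0.3275 without other markers, and the TAC-4w ratio of Ly6c2 turned to 0.631 without other markers. The causes were not tested. Of the values of named genes against resident-like macrophages under these alternatives, 1361 kept their side of the threshold and 129 lost it; against cells low in MHC class II, 316 kept it and 138 lost it. Depth limits genes under 50 UMIs and the 95 members of TAC-4w most.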
